A study of Mus musculus with 59 samples.

Results

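The 29 genes described here belong to cholesterol metabolism and were chosen by name: 20 enzymes of sterol synthesis, 6 genes of the SREBP control system and of sterol carriage between membranes, and 3 genes of sterol export and lipoprotein receptor turnover. All 29 were found among the 51456 Ensembl gene identifiers of the deposited table, and all 29 were among the 16919 genes tested, those with a mean normalized value of at least 10. Prefrontal cortex was taken on postnatal day 25 from mice of the C57BL/6J strain. The groups were Ank2 heterozygous mice (HT) given fluoxetine (10 libraries), wild-type mice (WT) given fluoxetine (9 libraries), HT and WT mice given lithium (10 libraries each), and HT and WT mice given vehicle (10 libraries each). Each group had 5 libraries per sex, except for 4 from WT fluoxetine males. Drug or vehicle reached the pups through the mother's milk for 3 weeks, from postnatal day 3 to 24. Fluoxetine is a serotonin reuptake inhibitor, lithium a mood stabilizer, and the product of Ank2, ankyrin-B, anchors membrane proteins to spectrin. The labels state neither dose, nor what the vehicle was, nor the Ank2 allele, nor the litters. They do not say that each library came from another animal, so p-values measure the spread between libraries.

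Brain cells make their own cholesterol, because lipoprotein cholesterol of the blood does not cross the blood-brain barrier. During the weeks after birth the demand is high, since oligodendrocytes lay down myelin and neurons extend axons and synapses. Synthesis starts from acetyl-CoA, passes through mevalonate and the isoprenoids, closes the sterol rings at lanosterol and ends with the enzymes that trim lanosterol to cholesterol. The pathway is governed by SREBP2, a transcription factor that is held in the endoplasmic reticulum with its escort SCAP by the INSIG proteins while sterols are plentiful. When sterols are low, SCAP carries SREBP2 to the Golgi apparatus, where proteases release the active part, which binds sterol regulatory elements with NF-Y and Sp1 beside it. Liver X receptors, which sense oxysterols, induce the export genes in the opposite state.

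The normalized values summed to 30294665 to 33772261 per library, and 22566 to 23745 genes were above 0. Ank2 had normalized values of 17431 to 22813 (median 22391) in HT fluoxetine, against 29585 to 35821 (median 32259) in WT fluoxetine libraries, of 18076 to 21947 (median 19672) in HT lithium, against 25376 to 29171 (median 27491) in WT lithium libraries, and of 18538 to 21059 (median 19648) in HT vehicle, against 23284 to 30855 (median 28928) in WT vehicle libraries, without overlap of the genotypes under any drug. The neocortical excitatory neuron markers were present in every library, with Slc17a7 between 34580 and 60474 in normalized value. The libraries that differed from the median of their own genotype, drug and sex group by over 1 for myelin or striatum markers, or over 2 for choroid plexus markers, numbered 4, and their levels are given here as mean log2 deviations from the gene means. HT fluoxetine female replicate 2 was at 6.997 for choroid plexus and 1.63 for myelin, and HT fluoxetine female replicate 1 was at 0.95 for striatum. HT lithium male replicate 1 was at 1.88 for striatum, and HT lithium male replicate 2 was at -0.74 for myelin. HT vehicle male replicate 2 (1.61 for striatum) and WT lithium female replicate 2 (-1.04 for myelin) were nearer to the medians of their own groups and stayed. Calls in HT mice that ended without the 4 libraries are named as such.

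Per kilobase of the longest transcript, the level of the members over all 59 libraries spanned 99.8 normalized units for Lbr, a sterol reductase that is also an inner nuclear membrane protein, to 3251 for Hmgcs1, the HMG-CoA synthase at the entry of the mevalonate pathway. Srebf2, which codes for SREBP2, followed at 1312, and the methylsterol oxidase Msmo1 at 793. Between libraries of 1 genotype and drug group, the members varied by a median coefficient of variation of 5.05% (Srebf2) to 16.1% (Srebf1, which codes for SREBP1, the factor of fatty acid synthesis).

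Promoter letters are shown for 6 members that were lower with fluoxetine in at least 1 genotype. SREBP2 acts with NF-Y and Sp1 at the starts of its target genes, but its action at these 6 was not tested. Of the 29 members, 24 matched the RefSeq promoter table (build GRCm38.p6); Fdps, Fdft1, Sqle, Stard4 and Abcg1 did not. The windows are the 250 bases before the RefSeq start, written 5′ to 3′ on the gene's strand, and capitals mark NF-Y boxes (CCAAT) and Sp1 boxes (GGGCGG) found on either strand. They lie at chr19:6067851-6068100 (minus strand) for Tm7sf2, chr5:28071162-28071411 (plus strand) for Insig1, chr13:8885356-8885605 (plus strand) for Idi1, chr17:12960726-12960975 (minus strand) for Acat2 and chr8:64733579-64733828 (minus strand) for Msmo1. The gene models used for positions begin elsewhere than these RefSeq starts. By those models the Tm7sf2 window lies wholly inside the gene (6062821 to 6068373). Most of the Msmo1 window and a part of the Idi1, Insig1 and Acat2 windows also lie inside their genes.
Tm7sf2: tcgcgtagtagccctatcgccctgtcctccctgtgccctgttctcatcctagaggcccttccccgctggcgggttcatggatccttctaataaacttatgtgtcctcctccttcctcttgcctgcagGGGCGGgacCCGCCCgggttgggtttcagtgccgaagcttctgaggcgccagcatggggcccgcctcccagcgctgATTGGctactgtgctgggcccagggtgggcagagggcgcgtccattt
Insig1: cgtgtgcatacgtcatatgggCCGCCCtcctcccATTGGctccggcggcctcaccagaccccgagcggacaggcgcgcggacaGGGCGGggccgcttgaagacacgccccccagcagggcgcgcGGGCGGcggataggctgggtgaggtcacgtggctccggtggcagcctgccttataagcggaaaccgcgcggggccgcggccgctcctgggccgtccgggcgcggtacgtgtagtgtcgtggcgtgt
Idi1: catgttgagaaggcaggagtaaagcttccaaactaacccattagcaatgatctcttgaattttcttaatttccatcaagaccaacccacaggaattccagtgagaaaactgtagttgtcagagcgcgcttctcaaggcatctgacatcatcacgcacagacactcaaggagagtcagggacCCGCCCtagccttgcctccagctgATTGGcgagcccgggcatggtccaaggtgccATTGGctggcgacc
Acat2: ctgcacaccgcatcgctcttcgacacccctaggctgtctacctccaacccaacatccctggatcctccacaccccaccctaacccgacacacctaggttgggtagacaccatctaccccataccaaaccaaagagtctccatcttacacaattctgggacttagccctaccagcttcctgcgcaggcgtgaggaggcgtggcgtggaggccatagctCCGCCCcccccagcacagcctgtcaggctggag
Msmo1: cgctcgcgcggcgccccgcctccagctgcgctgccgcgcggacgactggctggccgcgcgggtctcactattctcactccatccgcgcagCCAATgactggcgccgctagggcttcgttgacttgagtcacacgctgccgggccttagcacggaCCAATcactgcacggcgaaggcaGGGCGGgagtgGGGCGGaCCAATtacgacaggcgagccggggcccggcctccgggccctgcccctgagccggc
In the sixth, Hmgcs1, capitals mark instead the letters TCACNCCAC of a sterol regulatory element, searched on both strands, which begin 137 bases before the start. The 41 bases shown lie at chr13:119690198-119690238 on the plus strand.
Hmgcs1: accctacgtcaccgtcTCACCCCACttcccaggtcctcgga
The letters TCACNCCAC stood in 1 of the 32 windows of the 24 matched members and in 1.05% of all 32851 windows in the table. The NF-Y box stood in 22 of 32 member windows (68.8%), against 34.8% of the windows of all genes tested and 33.9% of all windows. The Sp1 box stood in 25 of 32 member windows (78.1%), against 54.3% of the windows of all genes tested and 32.7% of all windows. By gene, 21 of 24 matched members held an NF-Y box and 22 of 24 an Sp1 box in at least 1 window. Of the 12179 genes tested that had a window, 4883 held an NF-Y box and 7450 an Sp1 box. Sp1 and NF-Y letters did not share bases in the windows printed, and matches are letters only, not measured binding.

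Fluoxetine was accompanied by lower mRNA of a part of the sterol pathway in both genotypes. Of the 29 members, 11 were lower and 2 higher in HT mice given fluoxetine than in HT mice given vehicle, beside 7.38% lower and 6.63% higher (14% together) of all genes tested. In WT mice, 15 were lower and 2 higher, beside 7.78% lower and 7% higher (14.8% together) of all genes tested. With the trend on transcript length and GC content removed, the calls numbered 7 in HT and 10 in WT. With each library's length slope as a covariate, chosen after seeing the data, they numbered 5 in HT and 0 in WT. For the 5 in HT the share of all genes tested is not given, so that count is a value only. The median log2 change over the members was -0.10 in HT and -0.16 in WT, with 0.00 for all genes tested in each genotype. The lowest fold was that of Stard4 in HT, at 0.764. In whole tissue, fewer cells of a type and less RNA per cell cannot be told apart. In both genotypes 10 members were lower, which is 90.9% of those lower in HT and 66.7% of those lower in WT: Acat2, Fdps, Hmgcs1, Idi1, Insig1, Msmo1, Mvd, Nsdhl, Sqle and Stard4. Scap and Abcg1 were higher in both. Ggps1 was lower in HT alone by the test, and Cyp51, Fdft1, Mvk, Pmvk and Tm7sf2 in WT alone, but no member passed the test of a difference between genotypes in its response (0 of 29 by limma, 3 at an unadjusted p under 0.05, and 0 of all genes tested).

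**Figure D1:**
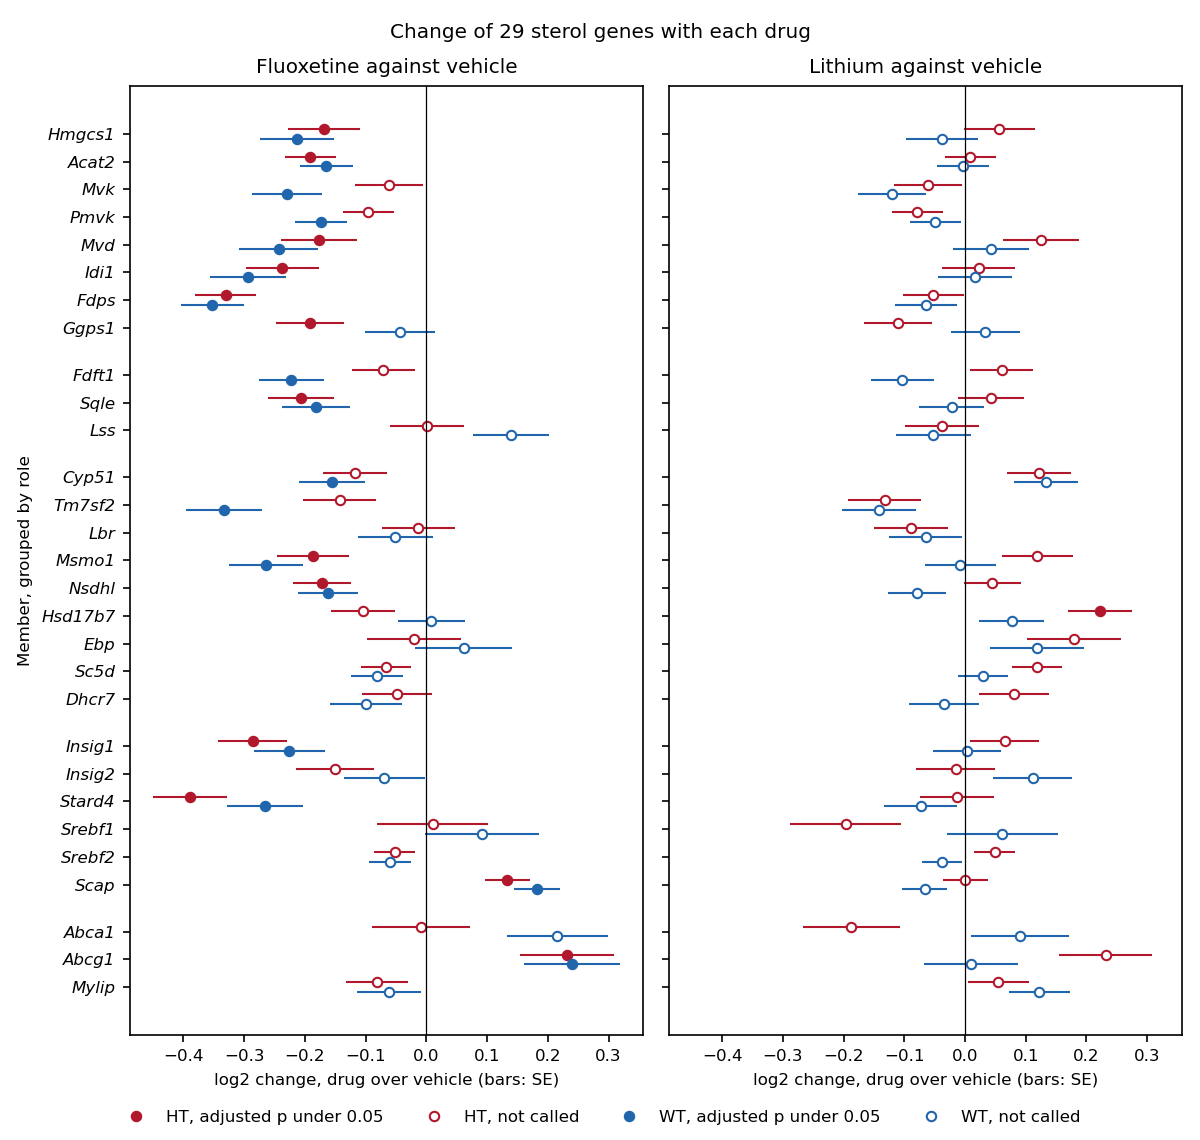
Log2 change of each of the 29 members (rows, grouped by role) with fluoxetine (left) and lithium (right) over vehicle, HT in red above WT in blue, with bars of 1 SE. Filled points have an adjusted p under 0.05. Under fluoxetine the points of the mevalonate rows are filled and left of the line, except for open points of Mvk and Pmvk in HT and Ggps1 in WT. The lithium panel holds 1 filled point, Hsd17b7 in HT.

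In the mevalonate and isoprenoid steps the enzymes moved one way. All 8 enzymes had negative log2 changes with fluoxetine in both genotypes; 6 of 8 fell in HT and 7 of 8 in WT. Fdps, the farnesyl diphosphate synthase whose product is shared by sterols, dolichol and protein prenylation, had normalized values between 1091 and 1301 (median 1136) in HT fluoxetine libraries, against 1251 to 1655 (median 1483) in HT vehicle libraries. It lay between 908 and 1183 (median 1096) in WT fluoxetine libraries, against 1102 to 1579.6 (median 1388) in WT vehicle libraries. In all, 9 of 10 HT fluoxetine libraries were below every HT vehicle library, and 5 of 9 WT fluoxetine libraries were below every WT vehicle library. Fdps fell to 0.795-fold in HT (log2 change -0.33, SE 0.05, adjusted p = 5.1e-06) and to 0.783-fold in WT (log2 change -0.35, SE 0.05, adjusted p = 2.2e-06). Fdps is on chromosome 3, at 89093588 to 89101959 (GRCm38). Of the other genes shown in most detail, Insig1 is on chromosome 5 at 28071363 to 28078662, Scap on chromosome 9 at 110333288 to 110384950 and Hsd17b7 on chromosome 1 at 169949535 to 169969241.

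Idi1, the isopentenyl diphosphate isomerase, had normalized values between 1624 and 2228 (median 1835) in HT fluoxetine libraries, against 1936 to 2543 (median 2214) in HT vehicle libraries. In WT they lay between 1278 and 1915 (median 1824) with fluoxetine, against 1724 to 2489.9 (median 2095) with vehicle. The ranges overlapped in both genotypes, although 7 of 10 HT fluoxetine libraries lay below all HT vehicle libraries. Idi1 fell to 0.849-fold in HT (log2 change -0.24, SE 0.06, adjusted p = 0.0052) and to 0.815-fold in WT (log2 change -0.29, SE 0.06, adjusted p = 0.00062). Mvd, the mevalonate diphosphate decarboxylase that makes isopentenyl diphosphate, had normalized values between 390.1 and 523 (median 495) in HT fluoxetine libraries, against 476 to 616 (median 550.4) in HT vehicle libraries. For WT mice the values were 347 to 534 (median 472) with fluoxetine, against 485 to 598 (median 553) with vehicle. Every fluoxetine library was below the vehicle median of its genotype, with overlap of the ranges. The log2 change of Mvd was -0.18 in HT (SE 0.06, adjusted p = 0.048) and -0.24 in WT (SE 0.06, adjusted p = 0.0061). The HT call was lost when any of 28 of the 59 libraries was left out, and without the libraries that stood apart. With the length and GC trend removed it was also lost (-0.14, adjusted p = 0.12), and so was the WT call.

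Acat2 codes for the cytosolic acetoacetyl-CoA thiolase of the first step, and a near neighbour copy, Acat3, may share reads with it. Its normalized values were 1164 to 1409 (median 1279) in HT fluoxetine libraries, against 1325 to 1635 (median 1466) in HT vehicle libraries. They were 1077 to 1465 (median 1285) in WT fluoxetine libraries, against 1199 to 1553 (median 1450.1) in WT vehicle libraries. Most HT fluoxetine libraries, 7 of 10, lay below all HT vehicle libraries, while the WT ranges overlapped widely. Acat2 fell by 0.19 on the log2 scale in HT (SE 0.04, adjusted p = 0.0012) and by 0.16 in WT (SE 0.04, adjusted p = 0.006). Hmgcs1 fell by 0.17 in HT (adjusted p = 0.045, lost without any 1 of 14 libraries) and by 0.21 in WT (adjusted p = 0.011; -0.17 and not called without WT fluoxetine male replicate 1). The mevalonate kinases Mvk and Pmvk had log2 changes of -0.06 and -0.10 in HT (adjusted p = 0.51 and 0.12) and fell by 0.23 and 0.17 in WT (adjusted p = 0.0037 and 0.0035). Ggps1, which makes geranylgeranyl diphosphate for protein prenylation, fell by 0.19 in HT (adjusted p = 0.015) and had a log2 change of -0.04 in WT (adjusted p = 0.70).

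Of the 3 enzymes that make squalene and close it to lanosterol, 1 fell in HT and 2 in WT. Sqle, the squalene epoxidase, which adds the oxygen that becomes the sterol hydroxyl group, had normalized values between 1752 and 2147 (median 1936) in HT fluoxetine libraries, against 1980.1 to 2515 (median 2215) in HT vehicle libraries. The WT values were 1476 to 2233 (median 1930.0) with fluoxetine, against 1751 to 2432 (median 2225) with vehicle. The HT groups overlapped in 3 of 10 fluoxetine libraries, and in WT 2 of 9 fluoxetine libraries lay below all vehicle libraries. Sqle fell by 0.21 on the log2 scale in HT (SE 0.05, adjusted p = 0.0062) and by 0.18 in WT (SE 0.06, adjusted p = 0.019). The WT call was lost, at -0.14, without WT fluoxetine female replicate 5 or male replicate 1. Fdft1, the squalene synthase that commits farnesyl diphosphate to sterols, had a log2 change of -0.07 in HT (adjusted p = 0.40) and fell by 0.22 in WT (adjusted p = 0.0025). Lss, the lanosterol synthase, passed in neither genotype, with log2 changes of 0.00 in HT and 0.14 in WT.

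The 9 enzymes after lanosterol were less uniform: 2 fell in HT and 4 in WT with fluoxetine. Msmo1 removes the methyl groups and had normalized values between 1926 and 2415 (median 2104) in HT fluoxetine libraries, against 2116 to 2868 (median 2507) in HT vehicle libraries. In WT its values were 1481 to 2393 (median 2055) with fluoxetine, against 2074 to 2918 (median 2383) with vehicle. In each genotype 6 fluoxetine libraries lay below every vehicle library. Msmo1 fell to 0.879-fold in HT (log2 change -0.19, SE 0.06, adjusted p = 0.025) and to 0.832-fold in WT (log2 change -0.26, SE 0.06, adjusted p = 0.0015). The HT call was lost, at -0.17, without HT vehicle female replicate 5 or male replicate 4, without the 4 libraries that stood apart (-0.17, adjusted p = 0.068), and with the length and GC trend removed (-0.15, adjusted p = 0.10). Nsdhl, which acts beside Msmo1 in the same demethylation, fell by 0.17 in HT (adjusted p = 0.0099) and by 0.16 in WT (adjusted p = 0.018; -0.14 and not called without WT fluoxetine female replicate 5).

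Tm7sf2, a sterol reductase of the step after Cyp51, had normalized values between 490.2 and 616 (median 572) in HT fluoxetine libraries, against 509 to 726 (median 623) in HT vehicle libraries. In WT it lay between 383 and 566 (median 471) with fluoxetine, against 500.1 to 728 (median 609) with vehicle. The HT ranges overlapped in all but 1 fluoxetine library, while 6 of 9 WT fluoxetine libraries were below all WT vehicle libraries. Its log2 change was -0.14 in HT (SE 0.06, adjusted p = 0.11) and -0.33 in WT (SE 0.06, 0.794-fold, adjusted p = 0.00011), and the difference between the genotypes, 0.19 (SE 0.09), did not pass (adjusted p = 0.63). Lbr, which shares this step, had log2 changes of -0.01 in HT and -0.05 in WT, neither of which passed. Cyp51, the lanosterol demethylase, had normalized values between 2003 and 2585 (median 2197) in HT fluoxetine libraries, against 2086 to 2842 (median 2387) in HT vehicle libraries. The WT values were 1617 to 2206 (median 2120.2) with fluoxetine, against 1995 to 2603 (median 2287) with vehicle, and the ranges overlapped in both genotypes. Cyp51 had a log2 change of -0.12 in HT (SE 0.05, adjusted p = 0.13) and fell by 0.16 in WT (SE 0.05, adjusted p = 0.042, lost without any 1 of 10 libraries). Hsd17b7, Ebp, Sc5d and Dhcr7, which complete the ring changes up to cholesterol, passed in neither genotype, with log2 changes between -0.10 and -0.02 in HT and between -0.10 and 0.06 in WT.

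**Figure D2:**
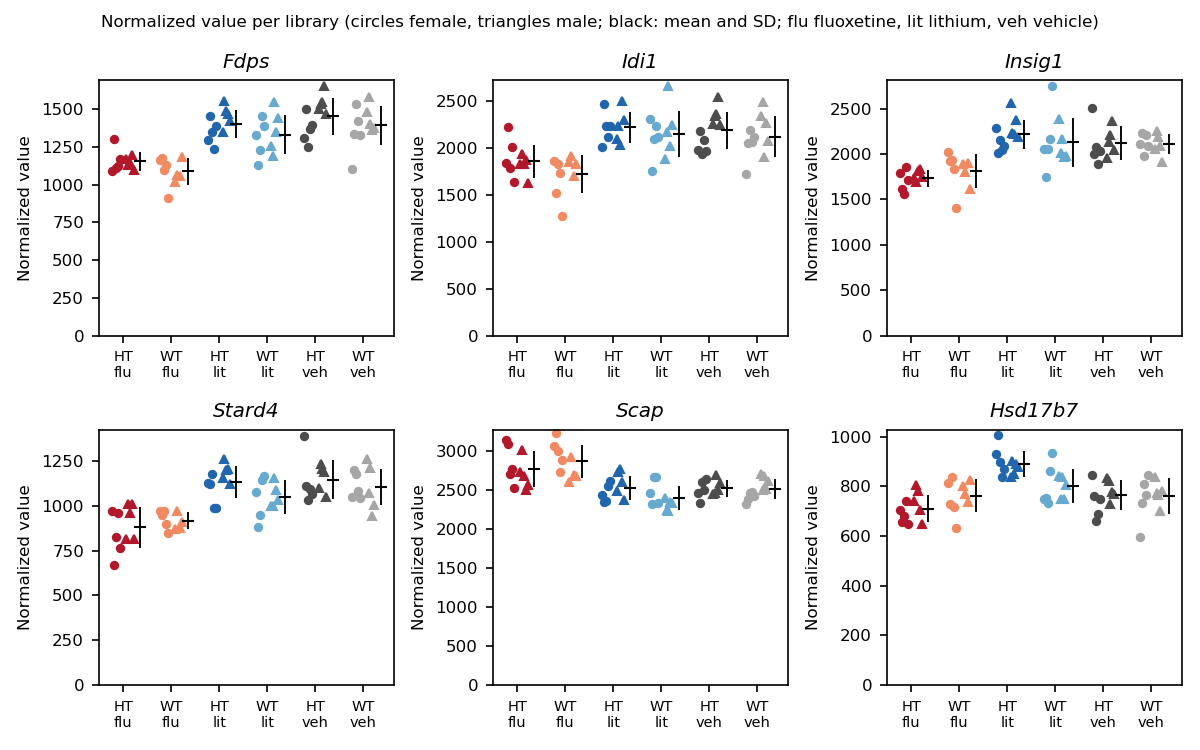
Normalized value of 6 members in each library by genotype and drug (circles female, triangles male), with the mean and SD in black beside each group. For Insig1 and Stard4 all 10 HT fluoxetine libraries lie below all 10 HT vehicle libraries, Scap is highest in the fluoxetine groups, and Hsd17b7 is highest in the HT lithium group.

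In the SREBP control system and sterol carriage, Insig1 and Stard4 fell and Scap rose in both genotypes, while Insig2 and both SREBP genes did not pass. Insig1, an SREBP2 target whose protein retains SCAP in the endoplasmic reticulum, had normalized values between 1559.8 and 1855 (median 1739.8) in HT fluoxetine libraries, against 1894 to 2507 (median 2056) in HT vehicle libraries. They were 1410.4 to 2018 (median 1887) in WT fluoxetine libraries, against 1908 to 2258 (median 2096) in WT vehicle libraries. The HT groups did not overlap, as was so for 0.171% of all genes tested in the lower direction, while in WT 6 of 9 fluoxetine libraries were below all vehicle libraries. Insig1 fell to 0.820-fold in HT (log2 change -0.29, SE 0.06, adjusted p = 0.0003) and to 0.855-fold in WT (log2 change -0.23, SE 0.06, adjusted p = 0.0048). Its relative Insig2 had log2 changes of -0.15 in HT and -0.07 in WT that did not pass (adjusted p = 0.11 and 0.56).

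Stard4, a soluble carrier that moves cholesterol between membranes and a known SREBP2 target, had normalized values between 669 and 1009.9 (median 891) in HT fluoxetine libraries, against 1031 to 1391 (median 1106) in HT vehicle libraries. The WT values were 848 to 972 (median 910.1) with fluoxetine, against 945 to 1263 (median 1079) with vehicle. Again the HT groups did not overlap, and in WT 5 of 9 fluoxetine libraries were below all vehicle libraries. Stard4 fell to 0.764-fold in HT (log2 change -0.39, SE 0.06, adjusted p = 7.1e-06) and to 0.832-fold in WT (log2 change -0.27, SE 0.06, adjusted p = 0.0019). Neither SREBP gene passed. Srebf2 had log2 changes of -0.05 in HT and -0.06 in WT (SE 0.03 each), and Srebf1 of 0.01 and 0.09 (SE 0.09 each). Scap had normalized values between 2498 and 3135 (median 2714) in HT fluoxetine libraries, against 2329 to 2694 (median 2495) in HT vehicle libraries. In WT they were 2592 to 3220.2 (median 2877) with fluoxetine, against 2323 to 2706 (median 2484) with vehicle. In each genotype 6 fluoxetine libraries were above all vehicle libraries and none was below the vehicle median. Scap rose to 1.10-fold in HT (log2 change 0.13, SE 0.04, adjusted p = 0.0098) and to 1.13-fold in WT (log2 change 0.18, SE 0.04, adjusted p = 0.0005). The HT call of Scap ended without the 4 libraries that stood apart (0.09, adjusted p = 0.11) and with the length and GC trend removed (0.11, adjusted p = 0.079).

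Among the 3 genes of export and receptor turnover, which liver X receptors induce, Abcg1 rose and the others did not pass. Abcg1, a transporter that hands cholesterol to lipoproteins, had normalized values between 1362 and 1836 (median 1518) in HT fluoxetine libraries, against 1117 to 1522 (median 1265) in HT vehicle libraries. For WT they were 1369 to 2076 (median 1603) with fluoxetine, against 1250.5 to 1687 (median 1304) with vehicle. No fluoxetine library was below its vehicle median, although the ranges overlapped. The log2 change was 0.23 in HT (SE 0.08, adjusted p = 0.035) and 0.24 in WT (SE 0.08, adjusted p = 0.032). Leaving out any 1 of 9 libraries ended the HT call and any 1 of 8 the WT call. Both calls were also lost with the length and GC trend removed. Abca1, the exporter to lipid-poor apolipoprotein E and A-I, had log2 changes of -0.01 in HT and 0.22 in WT (adjusted p = 0.96 and 0.071). Mylip, the ubiquitin ligase that degrades lipoprotein receptors, had log2 changes of -0.08 in HT and -0.06 in WT (adjusted p = 0.31 and 0.49).

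Few members passed with lithium, which was set against the same vehicle libraries as fluoxetine. In HT mice 1 of 29 members passed, beside 5.01% of all genes tested, with 10 members at an unadjusted p under 0.05 and a median log2 change of 0.04. In WT mice none passed by limma, beside 2.22% of all genes tested, with 4 at an unadjusted p under 0.05 and a median log2 change of -0.0076. The counts at an unadjusted p are values only, since the share of all genes tested is not given for them. The member that passed was Hsd17b7, the keto reductase of the demethylation complex. Its normalized values were 837 to 1008 (median 883) in HT lithium libraries, against 662 to 848 (median 766) in HT vehicle libraries. In WT they were 732 to 935 (median 779.9) with lithium, against 597 to 847 (median 769) with vehicle. In HT 8 of 10 lithium libraries were above all vehicle libraries, while in WT the groups overlapped widely. Hsd17b7 rose to 1.17-fold in HT (log2 change 0.22, SE 0.05, adjusted p = 0.0092) and had a log2 change of 0.08 in WT (adjusted p = 0.58), and the difference between genotypes did not pass (0.15, SE 0.07, adjusted p = 0.73).

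With fluoxetine set against lithium, 5 of the 8 mevalonate and isoprenoid enzymes (Hmgcs1, Acat2, Mvd, Idi1 and Fdps) were lower in both genotypes. So were Sqle, Cyp51, Msmo1, Insig1 and Stard4, while Scap was higher in both. The WT calls of Hmgcs1 and Sqle were each lost without any 1 of 7 libraries. These comparisons share the fluoxetine libraries with those above. In HT mice 14 members were lower and 1 higher with fluoxetine than with lithium, beside 6.88% lower and 6.18% higher (13.1% together) of all genes tested. In WT mice 14 were lower and 3 higher, beside 11.2% lower and 10.1% higher (21.3% together). In HT the groups did not overlap for Msmo1, Nsdhl, Hsd17b7 and Insig1, as for 0.195% of all genes tested in the lower direction. For Msmo1 the HT lithium libraries had normalized values of 2426 to 2994 (median 2667) and the WT lithium libraries 1880.1 to 2928 (median 2460.5). For Insig1 they were 2012 to 2559 (median 2203) in HT lithium and 1747 to 2749 (median 2053) in WT lithium libraries. Beside the fluoxetine values above, Insig1 was 0.784-fold in HT (log2 change -0.35, SE 0.06, adjusted p = 2.1e-05) and 0.853-fold in WT (log2 change -0.23, SE 0.06, adjusted p = 0.0029). Hsd17b7 had normalized values of 648 to 804 (median 705) in HT fluoxetine and 633 to 836 (median 769) in WT fluoxetine libraries, and fluoxetine over lithium was 0.797-fold in HT (adjusted p = 2.3e-05) and 0.954-fold in WT (adjusted p = 0.42).

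Stard4 had normalized values of 988 to 1264 (median 1143) in HT lithium and 882 to 1170.0 (median 1057) in WT lithium libraries, and its log2 change of fluoxetine over lithium was -0.38 in HT and -0.19 in WT (adjusted p = 2.0e-05 and 0.02). Fdps had 1238 to 1551 (median 1405) in HT lithium and 1127 to 1544 (median 1337) in WT lithium libraries, with a log2 change of -0.28 in HT and -0.29 in WT (adjusted p = 0.00012 and 4.0e-05). For both genes the lithium ranges overlapped the vehicle ranges given above, and 8 (Stard4) and 9 (Fdps) of 10 HT fluoxetine libraries were below all HT lithium libraries. Cyp51 had normalized values of 2309 to 2903 (median 2546) in HT lithium and 2192 to 2922 (median 2504) in WT lithium libraries, the highest medians of its 6 groups, and fell by 0.24 in HT and 0.29 in WT on the log2 scale with fluoxetine over lithium (adjusted p = 0.0012 and 6.9e-05). Idi1 lay between 2009 and 2497 (median 2235) in HT lithium and between 1757 and 2656 (median 2141) in WT lithium libraries, and Mvd between 510.3 and 672 (median 588) and between 471 and 639.8 (median 566). In HT, 8 (Idi1) and 7 (Mvd) of 10 fluoxetine libraries lay below all lithium libraries, and in WT 4 of 9 for each gene. Their log2 changes of fluoxetine over lithium were -0.26 and -0.30 in HT, and -0.31 and -0.29 in WT, all of which passed. Acat2 was at 1374 to 1639.9 (median 1453) in HT lithium and 1333 to 1577 (median 1384) in WT lithium libraries, and Sqle at 2087 to 2568 (median 2339) and 1764 to 2521 (median 2128). For each gene 9 of 10 HT fluoxetine libraries lay below all HT lithium libraries. Both fell with fluoxetine over lithium, Acat2 by 0.20 in HT and 0.16 in WT and Sqle by 0.25 and 0.16.

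Scap lay between 2346 and 2768 (median 2515) in HT lithium and between 2222 and 2661 (median 2335) in WT lithium libraries, and rose by 0.13 in HT and 0.25 in WT with fluoxetine over lithium (adjusted p = 0.011 and 2.5e-06). The WT fluoxetine libraries stood above all WT lithium libraries in 8 of 9 cases, the HT ones above all HT lithium libraries in 4 of 10. Tm7sf2 lay between 504 and 662 (median 559) in HT lithium and between 467 and 664 (median 533) in WT lithium libraries; its log2 change was -0.01 in HT (adjusted p = 0.94) and -0.19 in WT (adjusted p = 0.021).

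Of the other mevalonate and isoprenoid enzymes, Pmvk was lower in WT (log2 change -0.12, adjusted p = 0.032) and at -0.02 in HT, while Mvk (0.00 in HT and -0.11 in WT) and Ggps1 (-0.08 in each genotype) did not pass. Some members passed between the drugs that did not pass against vehicle. In HT, Sc5d and Srebf2 were lower with fluoxetine than with lithium (log2 changes -0.18 and -0.10, adjusted p = 0.0016 and 0.034). In WT, Mylip and Insig2 were lower (log2 changes -0.18 and -0.18, adjusted p = 0.0078 and 0.045) and Lss was higher (0.19, adjusted p = 0.022; 0.17 and not called without WT fluoxetine male replicate 2 or WT lithium female replicate 2). Leaving out any 1 of 14 libraries ended the call of Insig2 in WT, and any 1 of 7 that of Srebf2 in HT. Abca1, Ebp, Srebf1, Dhcr7 and Lbr passed in none of the 9 comparisons between groups.

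The Ank2 genotype gave no call among the members. Between HT and WT mice none of the 29 passed by limma under fluoxetine, lithium or vehicle, beside 0.0118%, 0.55% and 0.00591% of all genes tested. At an unadjusted p under 0.05 there were 4 members under fluoxetine, 13 under lithium and 0 under vehicle. The log2 differences (HT over WT) were positive for 18 members under fluoxetine, 23 under lithium and 25 under vehicle, with medians of 0.02, 0.08 and 0.03. For the counts at an unadjusted p and of positive differences, the share of all genes tested is not given. Both sets of counts are values only. Under lithium Hsd17b7 had a log2 difference of 0.15 (SE 0.05, adjusted p = 0.14) and Hmgcs1 of 0.14 (SE 0.06, adjusted p = 0.23). Under fluoxetine the widest difference was that of Tm7sf2, 0.24 (SE 0.06, adjusted p = 0.072).

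Up to here the sexes were pooled with equal weight. The number of the 20 synthesis enzymes with a negative log2 change under fluoxetine was 15 in HT females and 20 in HT males, with medians of -0.06 and -0.19. In WT it was 18 in females and 18 in males, with medians of -0.14 and -0.22. By the test, 4 of 29 members passed in HT females (beside 8.75% of all genes tested) and 6 in HT males (beside 3.36%), and 7 in WT females (beside 8.56%) and 7 in WT males (beside 5.3%). Fdps passed in all 4 of these, with log2 changes of -0.24 in HT females, -0.43 in HT males, -0.29 in WT females and -0.41 in WT males. Insig1 passed in both sexes of HT (-0.29 in females and -0.28 in males), as did Stard4 (-0.45 and -0.33). Idi1 was at -0.10 in HT females (adjusted p = 0.50) and -0.37 in HT males (adjusted p = 0.0062). Scap rose in females of both genotypes (0.18 in HT and 0.30 in WT) and was at 0.09 in HT and 0.06 in WT males. Abca1 rose in WT males alone by the test (0.38, adjusted p = 0.047), where 1 library had a value of 2463 against 1449 to 1806 in the other WT fluoxetine libraries. No member passed the limma test of a difference between females and males in its response to either drug (0 of 29 for each drug; 5 members for fluoxetine and 2 for lithium had an unadjusted p under 0.05), nor did any other gene.

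For each library, the median log2 deviation of the 20 enzymes from their gene means summarised the synthesis level. It was -0.16 to -0.021 (median -0.082) in HT fluoxetine and -0.32 to -0.022 (median -0.12) in WT fluoxetine libraries. It was -0.00046 to 0.18 (median 0.11) in HT lithium and -0.21 to 0.19 (median 0.0059) in WT lithium libraries. With vehicle it was -0.081 to 0.22 (median 0.053) in HT and -0.17 to 0.11 (median 0.053) in WT libraries. By this median every fluoxetine library was below 0, and so were 1 of 10 HT lithium, 5 of 10 WT lithium, 3 of 10 HT vehicle and 2 of 10 WT vehicle libraries. By the mean over the 20 enzymes, HT fluoxetine female replicate 2 was above 0, at 0.014, with 12 of the 20 below their gene means. HT vehicle females lay lower, at -0.081 to 0.054 (median -0.026), than HT vehicle males, at 0.051 to 0.22 (median 0.14).

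**Figure D3:**
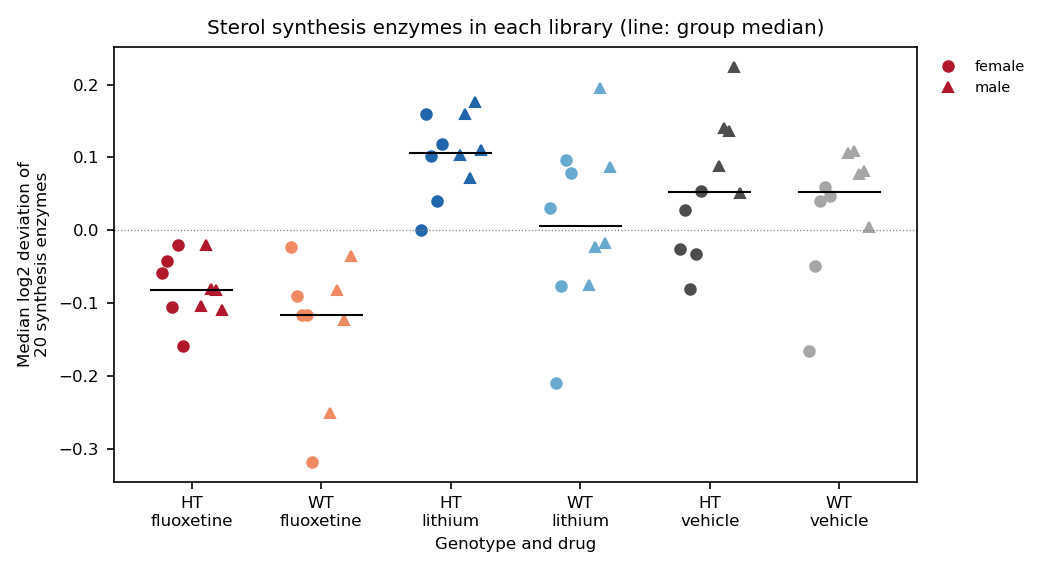
Median log2 deviation of the 20 synthesis enzymes from their gene means in each library (vertical axis), by genotype and drug (circles female, triangles male, lines group medians). Both fluoxetine groups lie below 0 in every library, with medians of -0.082 in HT and -0.12 in WT, and the lithium and vehicle groups spread around or above 0.

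The libraries also differed by transcript length, and that moved with the drug. The length slope of a library is the slope of the log2 deviation of each gene on the log2 length of its transcript, over genes whose mean reached 250; a positive slope means that short mRNAs are low relative to long ones. It was -0.015 to 0.068 (median 0.035) in HT fluoxetine libraries, against -0.068 to 0.075 (median -0.027) in HT vehicle libraries. In WT it was 0.026 to 0.10 (median 0.051) with fluoxetine, against -0.062 to -0.013 (median -0.033) with vehicle. In WT the slopes of the groups did not overlap, so that fluoxetine and the length slope cannot be told apart there. In HT they overlapped only through HT vehicle female replicate 1 (0.075) and HT fluoxetine male replicate 4 (-0.015). The other HT vehicle libraries lay at -0.010 or below, and the other HT fluoxetine libraries at 0.014 or above. Fluoxetine and the slope can therefore hardly be told apart in HT either. The longest transcript of the members measured between 1194 bases (Pmvk) and 10262 bases (Abca1). After the trend with length and GC content was removed from each library, 7 members were lower and none higher in HT (beside 9.81% of all genes tested), and 9 were lower and 1 higher in WT (beside 6.36%). The calls that remained in HT were Acat2, Idi1, Fdps, Ggps1, Sqle, Insig1 and Stard4, with Fdps at -0.32 and Stard4 at -0.39 on the log2 scale. In WT they were Hmgcs1, Idi1, Fdps, Fdft1, Sqle, Tm7sf2, Msmo1, Insig1, Stard4 and Scap, with Fdps at -0.33 and Stard4 at -0.32. Calls lost in both genotypes were those of Mvd, Nsdhl and Abcg1, those lost in HT alone Hmgcs1, Msmo1 and Scap, and those lost in WT alone Acat2, Cyp51, Mvk and Pmvk.

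**Figure D4:**
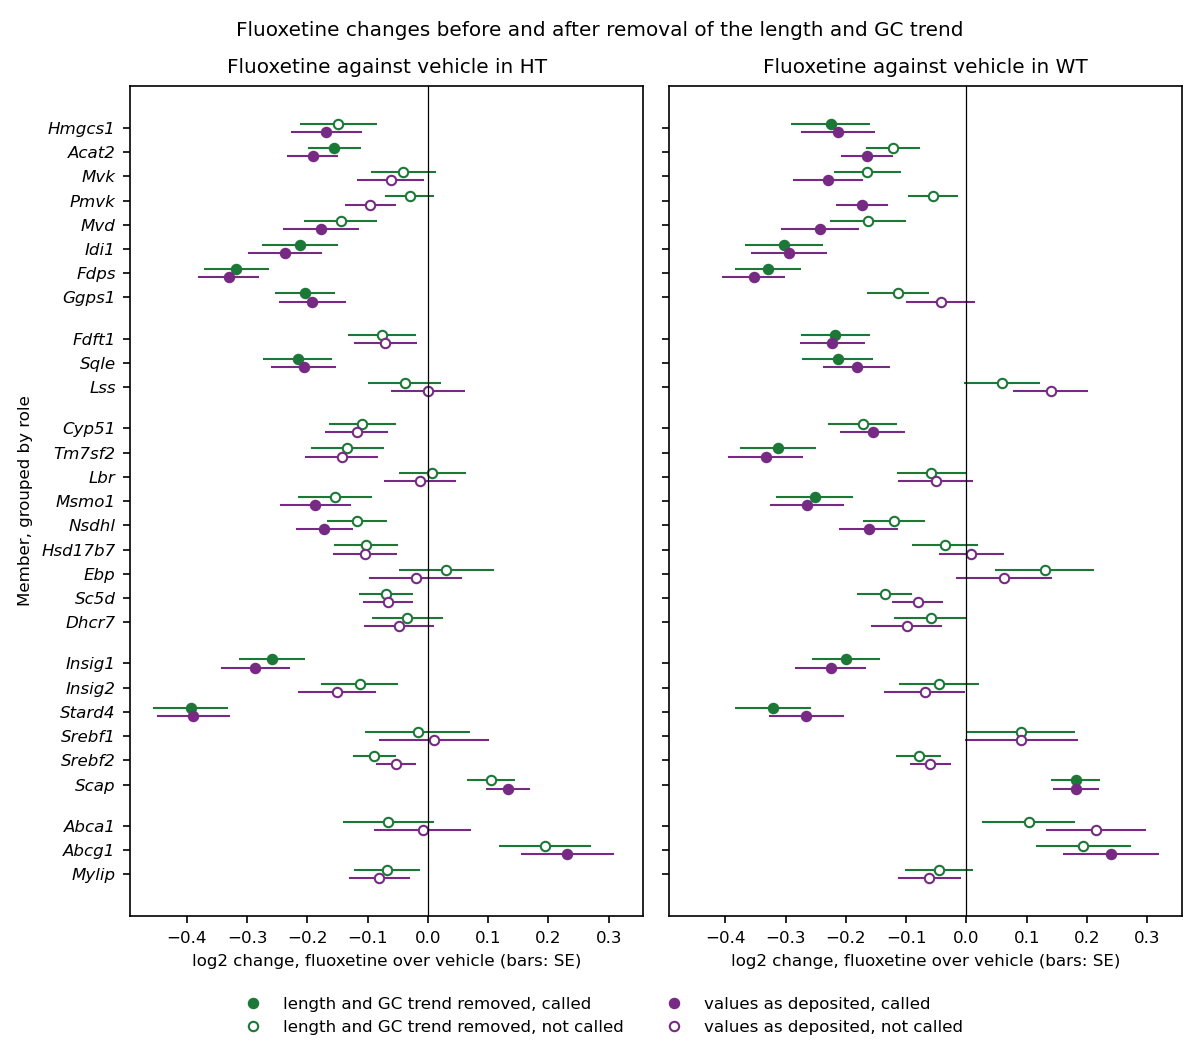
Log2 change of each member with fluoxetine over vehicle in HT (left) and WT (right), after removal of the length and GC trend (green, upper point) and from the values as deposited (purple, lower point), with bars of 1 SE. Filled points have an adjusted p under 0.05. Fdps, Idi1, Insig1, Sqle and Stard4 are filled in both colours and both genotypes, and Pmvk in WT moves toward 0.

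The length slope as a covariate, chosen after seeing the data, left 5 members called in HT and none in WT. The 5 in HT were Fdps (-0.27), Ggps1 (-0.28), Insig1 (-0.27), Stard4 (-0.40) and Scap (0.14), on the log2 scale. In WT the covariate left 0.372% of all genes tested. The share of all genes tested is not given for HT, so the 5 calls there are values only. The length slopes were 0.014 to 0.068 (median 0.038) in HT fluoxetine females, against -0.0030 to 0.063 (median 0.054) in HT lithium females, 1 of which lay below every HT fluoxetine female. Their synthesis levels were -0.16 to -0.021 (median -0.059) in HT fluoxetine females, against -0.00046 to 0.16 (median 0.10) in HT lithium females. The median of HT vehicle females lay between these, with levels of -0.081 to 0.054 (median -0.026) and slopes of -0.034 to 0.075 (median -0.012). Between these groups, a comparison also chosen after seeing the data, 8 of 29 members were lower with fluoxetine and 1 higher, beside 2.35% lower and 1.99% higher (4.34% together) of all genes tested. Those lower were Sqle (-0.27), Msmo1 (-0.35), Nsdhl (-0.25), Hsd17b7 (-0.41), Sc5d (-0.20), Insig1 (-0.31), Stard4 (-0.38) and Srebf2 (-0.16), and Scap was higher (0.21), all as log2 changes. In HT females the median normalized value of Hsd17b7 was 679 with fluoxetine, 750 with vehicle and 897 with lithium. For Sc5d the 3 medians were 2726, 2695 and 3202, for Stard4 825, 1095 and 1124, and for Insig1 1715, 2028 and 2092. Differences of lithium from vehicle therefore also enter this comparison. In HT males, where the slopes were -0.015 to 0.048 (median 0.026) with fluoxetine and -0.068 to -0.021 (median -0.039) with lithium, 9 members were lower and none higher, beside 3.98% lower and 2.93% higher (6.9% together).

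**Figure D5:**
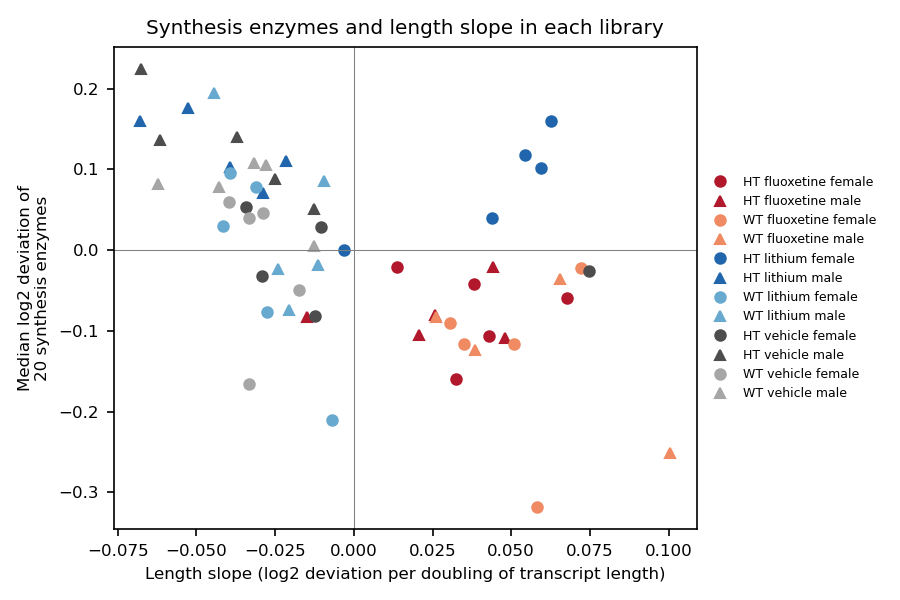
Length slope of each library (horizontal axis, log2 deviation per log2 unit of transcript length) against the median log2 deviation of the 20 synthesis enzymes (vertical axis), by genotype, drug and sex. HT lithium females lie at slopes of -0.0030 to 0.063 and at -0.00046 to 0.16 on the vertical axis, and HT fluoxetine females at slopes of 0.014 to 0.068 and at -0.16 to -0.021. HT vehicle females lie at slopes of -0.034 to 0.075 and at -0.081 to 0.054.

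Markers of cell types were set beside these levels. Of all genes tested, 6.63% were higher and 7.38% lower with fluoxetine in HT, and 7% and 7.78% in WT. Of 12 oligodendrocyte and myelin markers, none was called by limma in any of the 4 comparisons of drug with vehicle (1 in HT and 0 in WT at an unadjusted p under 0.05 with fluoxetine), with a median log2 change of 0.17 in HT and 0.02 in WT under fluoxetine. With their level as a covariate 13 members were called in HT and 17 in WT, and the part of myelin content in the result cannot be read from these counts. Their mean log2 deviation was -0.15 to 1.63 (median 0.15) in HT fluoxetine, against -0.79 to 0.59 (median 0.13) in HT vehicle libraries, and -0.34 to 0.32 (median -0.080) in WT fluoxetine, against -0.52 to 0.41 (median -0.045) in WT vehicle libraries. Astrocyte markers were higher with fluoxetine in 3 of 10 cases in HT and 1 of 10 in WT, and oligodendrocyte precursor markers in 3 of 6 cases in HT and none in WT. The precursor level was -0.0010 to 0.82 (median 0.23) in HT fluoxetine, against -0.35 to 0.24 (median -0.0089) in HT vehicle libraries. The mean log2 deviation of the astrocyte markers was -0.079 to 0.60 (median 0.070) in HT fluoxetine libraries, against -0.16 to 0.20 (median -0.027) in HT vehicle libraries. It was -0.074 to 0.16 (median 0.045) in WT fluoxetine libraries, against -0.15 to 0.053 (median -0.038) in WT vehicle libraries. With the astrocyte level as a covariate, 9 members were called in HT and 17 in WT. Blood cell markers were lower with fluoxetine in 4 of 5 cases in HT and 3 of 5 in WT, with levels of -0.93 to 0.27 (median -0.31) in HT fluoxetine, against -0.038 to 0.81 (median 0.41) in HT vehicle libraries, and -0.70 to 0.17 (median -0.53) in WT fluoxetine, against -0.25 to 0.57 (median 0.024) in WT vehicle libraries. Excitatory neuron markers were higher in 2 of 7 cases in HT and none in WT, with levels of -0.45 to 0.32 (median 0.13) in HT fluoxetine, against -0.38 to 0.095 (median 0.045) in HT vehicle libraries, and -0.35 to 0.29 (median 0.10) in WT fluoxetine, against -0.56 to 0.14 (median -0.020) in WT vehicle libraries. None of 6 inhibitory neuron markers passed by limma in either genotype (2 in HT and 0 in WT at an unadjusted p under 0.05), with levels of -0.49 to 0.0076 (median -0.11) in HT fluoxetine, against -0.052 to 0.10 (median 0.013) in HT vehicle libraries, and -0.18 to 0.031 (median -0.0064) in WT fluoxetine, against -0.047 to 0.069 (median 0.0021) in WT vehicle libraries. None of 6 olfactory bulb markers passed either (5 in HT and 0 in WT at an unadjusted p under 0.05), with levels of -3.68 to 1.09 (median -1.11) in HT fluoxetine, against -2.67 to 2.10 (median 0.29) in HT vehicle libraries, and -2.76 to 2.42 (median 0.60) in WT fluoxetine, against -1.04 to 2.59 (median 0.63) in WT vehicle libraries. The part of the precursor, blood, neuron and olfactory bulb markers in the result was not tested. For the fits with a marker covariate, or without the 4 libraries, the share of all genes tested is not given. Their counts are values only. None of the oligodendrocyte, astrocyte or precursor markers was at 0 in any library. Without the 4 libraries that stood apart, 10 members were lower and 1 higher with fluoxetine in HT. Fdps was then at -0.35, Idi1 at -0.27, Insig1 at -0.29 and Stard4 at -0.37 on the log2 scale and all 4 passed, while Msmo1 (-0.17, adjusted p = 0.068), Scap (0.09, adjusted p = 0.11) and Mvd (-0.20, adjusted p = 0.0501) did not and Insig2 did (-0.20, adjusted p = 0.038). The lithium call of Hsd17b7 in HT stood without them, at 0.22.

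Lists of neighbouring branches of lipid metabolism were counted in the same comparisons, in which 6.63% of all genes tested were higher and 7.38% lower with fluoxetine in HT, and 7% and 7.78% in WT. The counts are given as values beside those shares, and nothing is read from them about the lists. Of 16 genes of fatty acid synthesis and desaturation, which SREBP1 governs, 2 rose and 1 fell with fluoxetine in HT and 1 rose in WT: the acyl-CoA synthetase Acsl3 rose by 0.31 in HT and 0.16 in WT on the log2 scale, the fatty acid synthase Fasn rose by 0.16 in HT, and the acyltransferase Gpam fell by 0.12 in HT. Of 17 genes of SREBP processing and sterol sensing, 2 rose and 1 fell in HT and 1 fell in WT. The one that fell in both was Tmem97 (-0.18 in HT and -0.21 in WT), the sigma-2 receptor, which binds sterols and the Niemann-Pick transporter. Those that rose in HT were the retinoid X receptor Rxra (0.26) and the ubiquitin ligase Syvn1 (0.10). Of 16 genes of the isoprenoid branches, none passed in HT by limma (2 at an unadjusted p under 0.05), while in WT the prenyltransferase subunits Pggt1b rose (0.14) and Fnta fell (-0.15). Of 30 genes of sterol turnover, transport and storage, 3 rose in HT, Abca2 (0.20), Clu (0.19) and Abcg4 (0.10), and 4 rose and 2 fell in WT. Those that rose were Abca3 (0.15), Nceh1 (0.16), Osbp (0.07) and Gramd1b (0.10), and those that fell, chosen for naming after their values were seen, were Stard3 (-0.15) and Gramd1a (-0.11). The medians of the 4 lists lay between -0.04 and 0.05 under fluoxetine, beside -0.10 in HT and -0.16 in WT for the 29 members. With lithium, 3 turnover genes rose in HT (Gramd1b 0.12, Osbpl6 0.16 and Nceh1 0.18 on the log2 scale), while in WT the SREBP protease Mbtps1 fell (-0.15) and the prenyl synthase Pdss1 rose (0.24), and no other gene of the 4 lists passed.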

How the data were processed

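Messenger RNA of 59 prefrontal cortex libraries was prepared with a stranded poly(A) kit, per the labels' protocols. The deposited values are treated as a signal: normalized estimated counts per gene with decimals, made by the authors with Salmon 0.11.2 and DESeq2 1.19.11 (R 3.6.0) on GRCm38, per the submitters' processing notes, which give no settings. Whole reads could not be recovered (a median of 56.7% of low values per library were whole within 0.1 of a step), so read depth is unknown and no count test was run; the number of libraries limits the precision. Symbols, lengths and positions came from GRCm38 gene models, found for 51285 of 51456 identifiers. Values without a model held 0.00333% of the total.

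Genes with a mean of at least 10 were tested with limma 3.58.1 (R 4.3.3; trend, robust moderation) on log2(value + 1), with 12 genotype, drug and sex means, 47 residual degrees of freedom and Benjamini-Hochberg adjustment over 16919 genes within a comparison (two-sided, adjusted p under 0.05). Fold changes are on that log2(value + 1) scale, which understates the change of low genes. Contrasts weight the sexes equally. Counts at an unadjusted p under 0.05 are values only, as the share of all genes tested at that threshold is not given. The steps were tested on simulated data. Tables and figures used Python 3.11.15, NumPy 2.4.6, pandas 2.3.3 and matplotlib 3.10.9. Members and lists were chosen with earlier results of these data known. Lowest, median and highest values are given for the 12 members with the smallest adjusted p in any of 9 comparisons and, chosen after its values were seen, for Abcg1. Of other lists, up to 4 genes with the smallest p per comparison are named. Settings varied were the pseudocount, filter, scaling, length and GC trend, replicate number as a block, libraries in the fit, moderation, marker covariates and single libraries.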

Additional observations from a re-analysis of the deposited data

Results flagged for a closer look

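In 12 of 174 sets of libraries (29 members in 6 groups, 6.9%), the highest or lowest library lay farther from its neighbour than Dixon's test at 95% allows for its group; chance gives about 1 in 20. Values are normalized values. In the HT fluoxetine group, female replicate 2, the library with the high choroid plexus and myelin levels, was highest for Fdps (1301 against 1091 to 1196 in the others), Cyp51 (2585 against 2003 to 2296 in the others) and Dhcr7 (1387 against 915 to 1098 in the others). Nsdhl was lowest in female replicate 5 of that group (559 against 637 to 701 in the others).

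In the WT fluoxetine group, male replicate 1 was highest for Lbr (428 against 296 to 353 in the others) and Abca1 (2463 against 1449 to 1806 in the others), female replicate 2 for Insig2 (1539.7 against 1163 to 1351 in the others), and female replicate 5 was lowest for Cyp51 (1617 against 1987 to 2206 in the others). Among HT vehicle libraries, Cyp51 was highest in male replicate 4 (2842 against 2086 to 2478 in the others). Among WT vehicle libraries, female replicate 1 was lowest for Fdps (1102 against 1331 to 1579.6 in the others), Acat2 (1199 against 1365 to 1553 in the others) and Dhcr7 (911 against 1042 to 1143 in the others). Fdps and Acat2 passed the test in both genotypes without any 1 of these libraries.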

How the results depend on the processing

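Called members under fluoxetine against vehicle numbered 13 in HT and 17 in WT. With the length and GC trend removed they numbered 7 in HT and 10 in WT, and with the replicate block added to that correction likewise 7 and 10. With the length slope as a covariate the called members numbered 5 in HT, where the share of all genes tested is not given, and 0 in WT. That covariate left 1 call of fluoxetine against lithium in WT, and gave Pmvk the opposite sign in WT, with log2 changes of 0.015 against vehicle and 0.048 against lithium. Why these counts move was not tested beyond the length values given above. Without libraries that stand apart, HT against WT under fluoxetine had 1 call, and with the compared groups alone in the fit, lithium against vehicle in HT had 2. Leaving out each library in turn gave 9 to 13 calls for fluoxetine in HT and 13 to 18 in WT, 14 to 16 for fluoxetine against lithium in HT and 11 to 18 in WT, 1 to 2 for lithium in HT, 0 to 1 for HT against WT under fluoxetine, and 0 in the other comparisons. The lowest count in WT, 11, came without WT fluoxetine female replicate 5 or WT lithium male replicate 3. The count of 2 for lithium in HT came without HT lithium female replicate 1, female replicate 2 or male replicate 2, or HT vehicle female replicate 1, and the count of 1 for genotype came without HT fluoxetine female replicate 1. In WT, leaving out 1 library ended the call of fluoxetine against lithium for Abcg1 in 9 of 59 cases, Pmvk in 8, Hmgcs1 and Sqle in 7 each and Tm7sf2 in 5. Replicate numbers did not pair the libraries (mean correlation of deviations 0.018 with the same number and -0.0046 with another; 12 of 59 libraries correlated best with their own number); the replicate block gave 12 calls in HT and 17 in WT under fluoxetine. Under the other settings every count stayed within 1.5 times that given. Acat2, Fdps, Idi1, Insig1 and Stard4 kept their fluoxetine calls in both genotypes without any 1 library. Signal depth is unknown, so no limit by depth can be given.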
